A study of Bos taurus with 12 samples.

Results

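The annexins described here are ANXA1, ANXA2, ANXA4, ANXA5, ANXA6, ANXA7 and ANXA11, followed through bovine embryos made in vitro. Every array probe set whose annotation named exactly 1 of these 7 symbols was taken, which gave 10 of the 24016 probe sets tested and 6 of the 9155 genes named. ANXA1, ANXA2, ANXA4 and ANXA6 had 1 probe set each, ANXA11 had 2 and ANXA5 had 4, and no probe set was named ANXA7 in the annotation used here. Probe sets of the same gene share a target and are not independent of each other.

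Annexins are proteins that bind acidic phospholipids when calcium rises, through a conserved core of repeats, while a short variable N-terminal tail gives each one its partners. ANXA2 pairs with S100A10 under the plasma membrane and serves there as a receptor for plasminogen activation, and ANXA1 is known as a glucocorticoid-regulated inhibitor of inflammation. ANXA5 binds the phosphatidylserine that dying cells expose, ANXA6 carries an extra set of core repeats, and several members gather at wounds in the plasma membrane. In the blastocyst, the outer trophectoderm is the first epithelium of the embryo and encloses the inner cell mass.

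RNA came from 4 groups of embryos of Japanese Black cattle, with 3 arrays per group, each from its own pool. Prepubertal blastocysts grew from oocytes of heifers aged 9 to 12 months, whose ovaries were removed on farms, and adult blastocysts from oocytes of cows, whose ovaries came from an abattoir. Both were expanded, not yet hatched, and taken on day 7 in pools of 10. Prepubertal 8-16-cell embryos and adult 8-16-cell embryos came from the same kinds of donors and were collected in pools of 50 on day 3, between 70 and 72 h from insemination. All oocytes were matured and fertilized in vitro, freed of cumulus cells and cultured in the same media, and only embryos of normal morphology were pooled. Age, way of collecting ovaries and place of collection cannot be told apart. Stage and pool size, 10 or 50 embryos, cannot be told apart either. The sample titles also number the blastocysts and the 8-16-cell embryos in separate ranges, and what these numbers mean is not stated. The sources used here do not say whether pools had donors, a sire or a culture run in common, so the p-values measure the spread between these pools.

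A signal was called above background where it exceeded the highest of the 27 Bacillus subtilis control probe sets on the same array, since these are bacterial sequences. If such RNA was added to the samples, which the sources used here do not state, this background is too high. Prepubertal 8-16-cell replicate 3 stood apart, with a background of 1664 and 1255 probe sets above it, while on the other 11 arrays the background was 122 to 424 and 4297 to 8500 probe sets exceeded it. Its 100 brightest probe sets held 49.3% of its signal, against 23.3% to 32.7% on the others. The first principal component, with 21.1% of the variance, placed all 6 blastocyst arrays at 86.7 or above and all 6 8-16-cell arrays between -183 and -72.3. The stage labels fit their markers: the summed signal of 4 trophectoderm genes was 43801 to 80898 in prepubertal blastocysts and 32222 to 37298 in adult blastocysts, against 283 to 628 in prepubertal 8-16-cell embryos and 313 to 359 in adult ones. BMP15, an oocyte growth factor, was at background on all 6 blastocyst arrays and at 4961 to 28328 on the 8-16-cell arrays. Of 6 oocyte and maternal genes measured, 4 were called lower in blastocysts for the mean of both origins and 0 higher (limma). Of all probe sets 2.51% and 3.90% were so called. GDF9 was at background on all blastocyst arrays but above it on only 2 of 3 prepubertal 8-16-cell arrays. NLRP5 and ZP3 were at background on every 8-16-cell array. A pool mixes cell types, so fewer cells of a type and less RNA per cell cannot be told apart.

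More annexin probe sets were above background on all 3 arrays of a group in blastocysts than in 8-16-cell embryos. In prepubertal blastocysts 6 of the 10 probe sets were above background on all 3 arrays, where 15.9% of all probe sets were. In adult blastocysts 4 of 10 were, against 14.1% of all, and these 4 were ANXA1, ANXA2, ANXA6 and 1 of the 2 for ANXA11. No annexin probe set was above background on all 3 arrays of prepubertal 8-16-cell embryos (0 of 10, against 3.69% of all), and the same ANXA11 probe set was the 1 of 10 that was so in adult 8-16-cell embryos, against 12.6% of all. The probe sets at background on every array of a group numbered 2 in prepubertal blastocysts, 3 in adult blastocysts, 7 in prepubertal 8-16-cell embryos and 8 in adult 8-16-cell embryos, where 42.6%, 57.7%, 70.8% and 55.4% of all probe sets were so in the same order. With the second highest control as background, the last count was 5 of 10. The 8-16-cell counts above background on all 3 arrays were near the shares of all probe sets. ANXA5 Bt.247.1.S1_at went the other way in adult pools, above background on 2 of 3 8-16-cell arrays and 1 of 3 blastocyst arrays. Background was also higher on the prepubertal 8-16-cell arrays, 356 to 1664, than on the blastocyst arrays, 172 to 282.

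**Figure D1:**
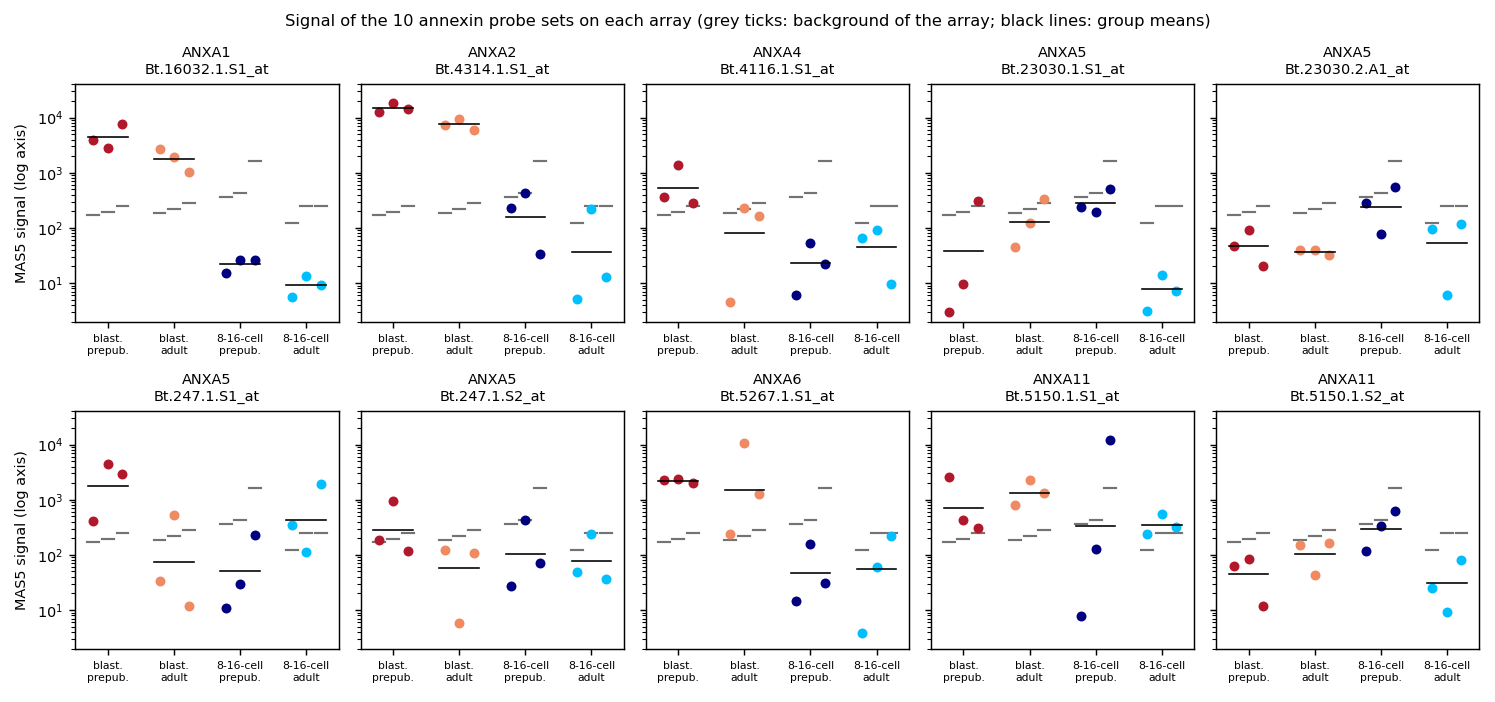
MAS5 signal (log axis) of each of the 10 annexin probe sets on each of the 12 arrays, with prepubertal blastocysts, adult blastocysts, prepubertal 8-16-cell embryos and adult 8-16-cell embryos from left to right in each panel. A point is 1 array, a grey tick the background of that array, and a black line the group mean taken on the log2(signal + 16) scale. ANXA1, ANXA2 and ANXA6 lie above background on all 6 blastocyst arrays, while the 4 ANXA5 panels differ from each other.

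The stage comparison asked which annexins differ between the expanded blastocyst and the embryo at genome activation. ANXA1, ANXA2 and ANXA6 were higher in blastocysts when both oocyte origins were averaged, and ANXA1 and ANXA2 were also higher within each origin alone. No annexin probe set was called lower in blastocysts in any of the 3 stage comparisons (0 of 10 in each). Of all probe sets 0.870% to 2.51% were called lower, so 0 of 10 is near the share of all.

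ANXA1 (probe set Bt.16032.1.S1_at) read 3928, 2804 and 7593 in prepubertal blastocysts and 2742, 1957 and 1035 in adult blastocysts. In 8-16-cell embryos it read 15.2, 25.7 and 25.8 in prepubertal pools and 5.63, 13.4 and 9.29 in adult pools. All 6 blastocyst arrays were above background and above all 6 8-16-cell arrays, which were all at background. On the log2(signal + 16) scale, on which all differences are given, the levels were 12.10 ± 0.73 in prepubertal blastocysts, 10.81 ± 0.71 in adult blastocysts, 5.24 ± 0.24 in prepubertal 8-16-cell embryos and 4.66 ± 0.22 in adult 8-16-cell embryos (SD, n = 3 each). The blastocyst minus 8-16-cell difference was 6.86 (SE 1.46, limma adjusted p = 0.000969) with prepubertal oocytes and 6.15 (SE 1.46, limma adjusted p = 0.00559) with adult oocytes. Where every array of the dimmer group was at background, a fold is given only as a lower bound, namely the brighter group's mean over the dimmer group's mean after each dim signal was raised to its array's background. For ANXA1 blastocysts were at least 6.75-fold higher with prepubertal oocytes, or at least 10.9-fold without prepubertal 8-16-cell replicate 3, and at least 8.38-fold higher with adult oocytes.

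ANXA2 (Bt.4314.1.S1_at), the plasminogen receptor subunit, read 12798, 18417 and 14053 in prepubertal blastocysts and 7426, 9438 and 6038 in adult blastocysts. The prepubertal 8-16-cell pools read 226, 432 and 33.4, of which the second was just above its background of 424, and the adult pools 5.06, 224 and 12.8. Again no blastocyst array overlapped an 8-16-cell array. The levels were 13.87 ± 0.27 in prepubertal blastocysts and 12.88 ± 0.32 in adult blastocysts, against 7.45 ± 1.64 and 5.72 ± 1.91 in prepubertal and adult 8-16-cell embryos (log2 signal, SD, n = 3 each). The stage difference was 6.41 (SE 1.42, limma adjusted p = 0.00186) with prepubertal oocytes and 7.16 (SE 1.42, limma adjusted p = 0.000406) with adult oocytes, where blastocysts were at least 35.3-fold higher. ANXA2 also held its call when every signal was raised to the highest background of any array (difference 2.66, limma adjusted p = 0.0001, mean of both origins), whereas ANXA1 did not (0.851, limma adjusted p = 0.15).

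ANXA6 (Bt.5267.1.S1_at), the annexin with the extra repeats, read 2292, 2350 and 2024 in prepubertal blastocysts and 239, 10684 and 1244 in adult blastocysts. In 8-16-cell embryos the readings were 14.4, 154 and 31.0 in prepubertal pools and 3.85, 59.3 and 222 in adult pools, all at background. The prepubertal blastocyst pools lay close together, while the adult ones spread widely, with a lowest reading just above the highest 8-16-cell one. The levels were 11.13 ± 0.11 and 10.56 ± 2.70 in prepubertal and adult blastocysts, against 5.97 ± 1.29 and 6.15 ± 1.79 in prepubertal and adult 8-16-cell embryos (log2 signal, SD, n = 3 each). Averaged over origins, ANXA6 was 4.79 higher in blastocysts (SE 1.05, limma adjusted p = 0.000547), at least 4.93-fold, or at least 3.02-fold without adult blastocyst replicate 2 and 7.69-fold without adult blastocyst replicate 1. With prepubertal oocytes alone the difference was 5.16 (SE 1.49, limma adjusted p = 0.0331), at least 3.43-fold, or at least 5.52-fold without prepubertal 8-16-cell replicate 3. This call was lost without any 1 of prepubertal blastocyst replicates 1, 2 and 3 (adjusted p = 0.117, 0.117 and 0.0994) and prepubertal 8-16-cell replicates 1 and 3 (adjusted p = 0.114 and 0.0802, limma). With adult oocytes alone the difference of 4.41 did not pass (SE 1.49, limma adjusted p = 0.0992), and it passed with arrays weighted by quality (4.67, limma adjusted p = 0.0295).

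Counted over the family, 3 of 10 annexin probe sets were called higher for the mean of both origins, where 3.90% of all probe sets were called higher. With prepubertal oocytes the count was 3 of 10, against 1.43% of all, and with adult oocytes 2 of 10, against 1.26% of all. Called lower were 0 of 10 in each comparison, against 2.51%, 0.912% and 0.870% of all in the same order. The 3 called for the mean were also those whose 6 blastocyst arrays all lay above the 6 8-16-cell arrays, as 2.17% of all probe sets did. Within prepubertal pools 5 of 10 were higher and 1 of 10 lower without overlap of arrays, against 7.35% and 9.24% of all, and within adult pools 5 of 10 were higher, against 9.55% of all. The median stage difference of the 10 probe sets was 1.34 for the mean of both origins, 2.56 with prepubertal oocytes and 1.63 with adult oocytes. Over all probe sets these medians were -0.17, -0.37 and 0.08, and after quantile normalization, which moved the array-wide shift, -0.0953, -0.122 and -0.0334.

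**Figure D2:**
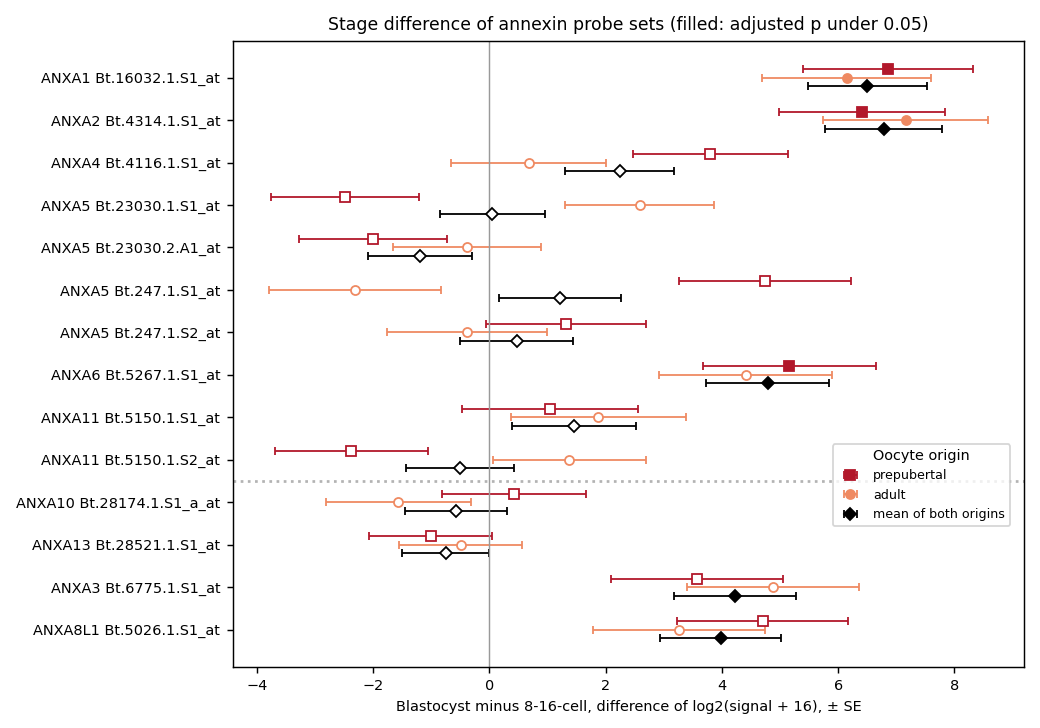
Blastocyst minus 8-16-cell difference of log2(signal + 16) with its SE, for the 10 annexin probe sets above the dotted line and 4 further annexin probe sets below it, with prepubertal oocytes (squares), adult oocytes (circles) and as the mean of both (diamonds). Filled symbols have an adjusted p under 0.05: ANXA1 and ANXA2 are filled in all 3 comparisons and ANXA6 in 2, while ANXA3 and ANXA8L1 are filled for the mean alone.

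ANXA4 (Bt.4116.1.S1_at), which binds and aggregates membranes, read 367, 1389 and 278 in prepubertal blastocysts and 4.59, 226 and 166 in adult blastocysts. All 3 prepubertal blastocyst readings were above background, against 1 of 3 adult ones, and all 6 8-16-cell readings, from 6.16 to 91.7, were at background. The stage difference was 3.80 with prepubertal oocytes (SE 1.33, limma adjusted p = 0.115), with no overlap of arrays, and 0.68 with adult oocytes (SE 1.33, limma adjusted p = 0.948). Neither passed.

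ANXA11 (Bt.5150.1.S1_at), which binds the calcium sensor PDCD6 and links RNA granules to lysosomes, was above background on most arrays of both stages. It read 2630, 421 and 306 in prepubertal blastocysts, 792, 2266 and 1304 in adult blastocysts and 241, 547 and 325 in adult 8-16-cell embryos, all 9 above background. The prepubertal 8-16-cell pools read 7.88, 128 and 12328, so replicate 3, which stood apart, gave the highest of the 12 readings and the other 2 were at background. The stage difference was 1.04 with prepubertal oocytes (SE 1.51, limma adjusted p = 0.826) and 1.87 with adult oocytes (SE 1.51, limma adjusted p = 0.765), where the arrays did not overlap. With prepubertal oocytes the difference was -0.889 without prepubertal 8-16-cell replicate 1 and 3.62 without replicate 3 of that group, and neither passed (limma adjusted p = 0.849 and 0.276). The other ANXA11 probe set (Bt.5150.1.S2_at) was at background on all 12 arrays.

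The 4 ANXA5 probe sets did not give 1 picture. Bt.247.1.S1_at read 412, 4497 and 2897 in prepubertal blastocysts, 33.6, 518 and 11.7 in adult blastocysts, 10.8, 29.9 and 226 in prepubertal 8-16-cell embryos and 345, 111 and 1956 in adult 8-16-cell embryos. It was thus above background on all prepubertal blastocyst arrays, on 1 of 3 adult blastocyst arrays, on none of the prepubertal 8-16-cell arrays and on 2 of 3 adult ones. Its stage difference was 4.74 with prepubertal oocytes (SE 1.48, limma adjusted p = 0.0596), at least 2.73-fold, and -2.31 with adult oocytes (SE 1.48, limma adjusted p = 0.639). The lower bound was 4.39-fold without prepubertal 8-16-cell replicate 3, 5.58-fold without prepubertal blastocyst replicate 1 and 1.72-fold without prepubertal blastocyst replicate 2. The first difference passed without prepubertal 8-16-cell replicate 3 (5.66, limma adjusted p = 0.0316) and after quantile normalization (4.91, limma adjusted p = 0.0417).

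None of the other 3 ANXA5 probe sets was above background on all 3 arrays of a group. Bt.23030.1.S1_at had the opposite signs, -2.48 with prepubertal oocytes (SE 1.28, limma adjusted p = 0.375) and 2.58 with adult oocytes (SE 1.28, limma adjusted p = 0.421), and was above background on 1 array of each blastocyst group. Bt.247.1.S2_at read 185, 952 and 118 in prepubertal blastocysts, was above background on the first 2 of these arrays and on 1 prepubertal 8-16-cell array, and had stage differences of 1.32 and -0.38 with prepubertal and adult oocytes. Bt.23030.2.A1_at was at background on all 12 arrays. Which of the 4 follows ANXA5 RNA best was not tested.

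Members of the family outside the 7 symbols were taken for comparison, 4 probe sets in all. ANXA3 (Bt.6775.1.S1_at) read 1196, 1597 and 606 in prepubertal blastocysts and 113, 3261 and 3801 in adult blastocysts, against 18.5, 12.0 and 745 in prepubertal 8-16-cell embryos and 53.0, 12.4 and 16.0 in adult ones. All but adult blastocyst replicate 1 were above background in blastocysts, and no 8-16-cell array was. ANXA3 was 4.22 higher in blastocysts for the mean of both origins (SE 1.05, limma adjusted p = 0.00299), at least 3.00-fold, or at least 5.22-fold without adult blastocyst replicate 1. ANXA8L1 (Bt.5026.1.S1_at) read 404 to 3194 in prepubertal blastocysts and 577 to 3115 in adult blastocysts, against 14.6 to 46.6 and 93.6 to 460 in prepubertal and adult 8-16-cell embryos. It was 3.98 higher in blastocysts (SE 1.04, limma adjusted p = 0.00542, mean of both origins). Within 1 origin neither passed, the nearest being ANXA3 with adult oocytes (4.88, limma adjusted p = 0.0521), and ANXA10 and ANXA13 were at background on all 12 arrays.

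The origin comparison asked whether embryos from prepubertal oocytes differ from those from adult oocytes at each stage. No annexin probe set was called in blastocysts (0 of 10, limma), where 0% of all probe sets were called, and 1 of 10 had an unadjusted p under 0.05, as did 884 of all 24016. None was called at the 8-16-cell stage either (0 of 10, limma), where 0.0208% of all probe sets were called, and 2 of 10 had an unadjusted p under 0.05, as did 2166 of all. The lack of a call does not show that the groups are alike, and the 95% intervals of the differences were several log2 units wide.

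In blastocysts, ANXA1, ANXA2 and ANXA4 each read higher on all 3 prepubertal arrays than on any adult array, with the per-array readings given above. That made 3 of 10 probe sets higher without overlap, against 6.04% of all. The prepubertal minus adult difference was 1.30 for ANXA1 (95% interval -1.57 to 4.17), 0.99 for ANXA2 (-1.82 to 3.79) and 2.48 for ANXA4 (-0.15 to 5.11), each with a limma adjusted p of 0.9997, and the median of all probe sets was 0.16. The fit lends each probe set the spread common at its level. For ANXA1 it used an SD of 1.78 on the log2 scale, where the arrays' own residual SD over all 4 groups was 0.533. For ANXA2 it used 1.74 where the arrays' own was 1.28. For ANXA5 Bt.247.1.S1_at and ANXA11 Bt.5150.1.S1_at it used less than the arrays' own, 1.81 where it was 1.94 and 1.85 where it was 2.51. In prepubertal and adult blastocysts alone the SDs were 0.73 and 0.71 for ANXA1 and 0.27 and 0.32 for ANXA2. Those of the ANXA5 probe set were 1.81 and 2.26, and of the ANXA11 probe set 1.64 and 0.75. ANXA6 differed by 0.57 (-2.37 to 3.50) and ANXA11 (Bt.5150.1.S1_at) by -0.90 (-3.88 to 2.07), with arrays that overlapped. ANXA5 Bt.247.1.S1_at had the largest origin difference in blastocysts among the 10, 4.30 (1.38 to 7.22, unadjusted p = 0.00406, limma adjusted p = 0.9997), and its arrays overlapped.

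At the 8-16-cell stage 3 of 10 probe sets were higher without overlap in prepubertal pools, against 10.0% of all, and all 3 were at background on every array. They were ANXA1, ANXA5 Bt.23030.1.S1_at and ANXA11 Bt.5150.1.S2_at. The ANXA5 probe set read 239, 192 and 512 in prepubertal 8-16-cell embryos, against 3.17, 14.2 and 7.23 in adult ones, a difference of 3.67 (SE 1.28, limma adjusted p = 0.396), where the median of all probe sets was 0.59, or 0.0514 after quantile normalization. ANXA2 differed by 1.74 at this stage (95% interval -1.07 to 4.54), ANXA4 by -0.64, ANXA6 by -0.18 and ANXA5 Bt.247.1.S1_at by -2.75 (-5.66 to 0.17), all with arrays that overlapped. Signals of the spiked hybridization controls moved with this contrast, with medians of 362580 to 994930 on the prepubertal 8-16-cell arrays and 110690 to 251570 on the adult ones, and their part in it was not tested.

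The origin effect in blastocysts minus that at the 8-16-cell stage was called for 0 of 10 annexin probe sets (limma), against 0% of all, while 3 of 10 had an unadjusted p under 0.05, as did 1307 of all. The widest was ANXA5 Bt.247.1.S1_at, at 7.05 (SE 2.09, unadjusted p = 0.000906, limma adjusted p = 0.766). A second ANXA5 probe set, Bt.23030.1.S1_at, ran the other way at -5.07 (SE 1.81, limma adjusted p = 0.873). For ANXA1, ANXA2 and ANXA6 it was 0.71, -0.75 and 0.75, each smaller than its SE.

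**Figure D3:**
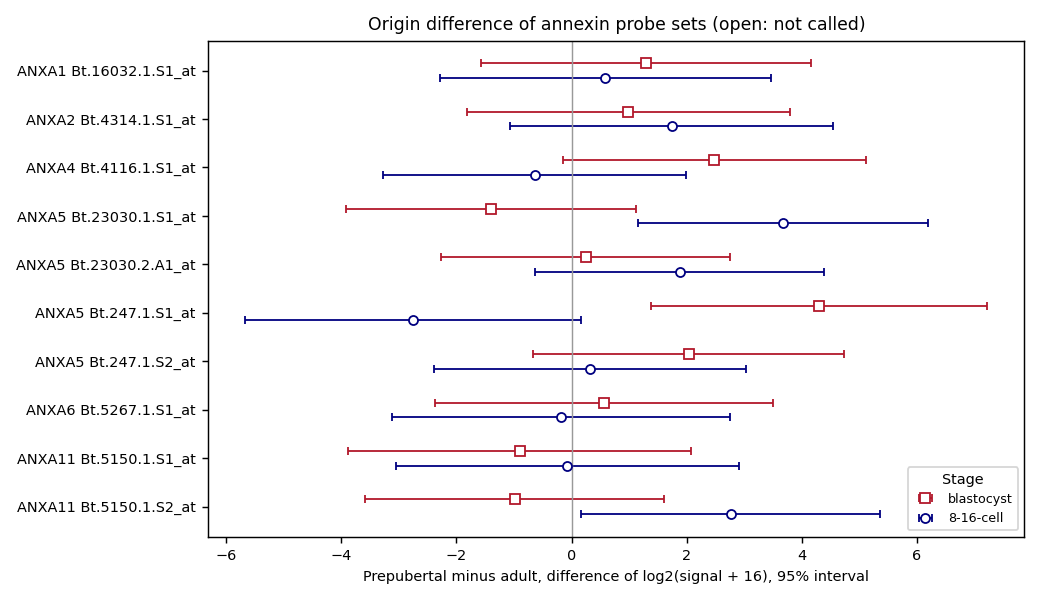
Prepubertal minus adult difference of log2(signal + 16) with its 95% interval for each of the 10 annexin probe sets, in blastocysts (squares) and at the 8-16-cell stage (circles). No difference was called after adjustment, and for ANXA5 the probe sets Bt.247.1.S1_at and Bt.23030.1.S1_at lie on opposite sides of 0 at both stages.

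Proteins that annexins bind were read next, as 11 measured genes of a list of 16. For the mean of both origins 2 of 11 were higher in blastocysts and 0 lower, where 3.90% and 2.51% of all probe sets were called so, and the median difference was 0.72. Here and in the lists below each gene stood as its probe set of highest mean. The shares cover all probe sets, dim ones included, so the sets compared are not alike. S100A10, the partner of ANXA2, read 11326, 4327 and 4996 in prepubertal blastocysts and 8534, 9843 and 7557 in adult blastocysts, against 858, 702 and 674 in prepubertal 8-16-cell embryos and 7185, 508 and 141 in adult ones. It was 3.21 higher in blastocysts (SE 0.91, limma adjusted p = 0.0133). In contrast to ANXA2, S100A10 was above background on 2 of 3 arrays in each 8-16-cell group, and adult replicate 1 reached the blastocyst range. SRI (sorcin, a calcium sensor that binds ANXA7) was 4.56 higher (SE 1.06, limma adjusted p = 0.00119). Its stages overlapped too, with 1828 on adult 8-16-cell replicate 2, above background, and 1339 on adult blastocyst replicate 1. GSN (gelsolin, which severs actin) and CAPN2 (a calpain) had differences of 2.72 and 2.64 that did not pass (limma adjusted p = 0.0857 and 0.10). PDCD6, a partner of ANXA11, was above background on all 12 arrays, with 1805 to 2509 in prepubertal blastocysts and 4357 to 5519 in adult blastocysts, against 1817 to 4984 and 661 to 1754 in prepubertal and adult 8-16-cell embryos. Its stage difference was 0.72 (SE 0.90, limma adjusted p = 0.783). S100A11, the known partner of ANXA1, was above background on 1 array of each blastocyst group and on no 8-16-cell array, with a stage difference of 0.23 (SE 0.95, limma adjusted p = 0.95).

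Of the genes of plasma membrane repair and ESCRT-III, the complex that sheds wounded membrane, 23 of 27 were measured, and 3 were higher and 0 lower in blastocysts for the mean of both origins, against 3.90% and 2.51% of all probe sets. The median difference was 0.52, against -0.17 over all probe sets. With every signal raised to the highest background of any array, 0 of the 9 genes that could be tested were called. MYOF (myoferlin, a membrane fusion protein) was 3.79 higher (SE 1.06, limma adjusted p = 0.0108). CAPNS1, the small subunit of the calpains that cut annexins and ferlins at wounds, was 3.57 higher (SE 1.05, limma adjusted p = 0.0174). SMPD1, the acid sphingomyelinase released at wounds, was 3.72 higher (SE 1.05, limma adjusted p = 0.0119), at least 3.71-fold. None of the 11 measured CHMP genes and neither VPS4 gene, which build and take apart ESCRT-III, passed. The 7 of 17 measured genes that set phosphatidylserine distribution gave 0 higher and 0 lower, with a median of 0.33 and 0.185 as their lowest limma adjusted p.

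Of the genes of plasminogen activation at the cell surface, 6 of 9 were measured, and 2 were higher and 0 lower for the mean of both origins, against 3.90% and 2.51% of all probe sets, with a median of 0.52. PLAU (urokinase, the plasminogen activator) read 9884, 5419 and 8122 in prepubertal blastocysts and 15533, 9356 and 16434 in adult blastocysts, against 341, 404 and 758 in prepubertal 8-16-cell embryos and 64.2, 4.05 and 76.6 in adult ones. Every 8-16-cell reading was at background and below every blastocyst reading. PLAU was 5.97 higher in blastocysts for the mean of both origins (SE 0.98, limma adjusted p = 1.23e-06), at least 27.1-fold. ENO1, the glycolytic enzyme that also binds plasminogen, was 3.48 higher (SE 1.005, limma adjusted p = 0.0154), at least 1.57-fold. The ENO1 bound was 1.16-fold to 2.02-fold as each array was left out, and under 1 with prepubertal oocytes alone. ENO1 read 177 on adult blastocyst replicate 3, at background. SERPINE2, an inhibitor of these proteases, had a difference of 1.87 (limma adjusted p = 0.276). PLAUR (the urokinase receptor), PLAT (the tissue plasminogen activator) and PLG (plasminogen itself) had differences of -0.91, -0.91 and -0.84, with limma adjusted p of 0.705, 0.664 and 0.766. Within 1 origin, PLAU with adult oocytes (7.98, SE 1.38, limma adjusted p = 3.55e-05) was the 1 gene of these 4 lists called.

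**Figure D4:**
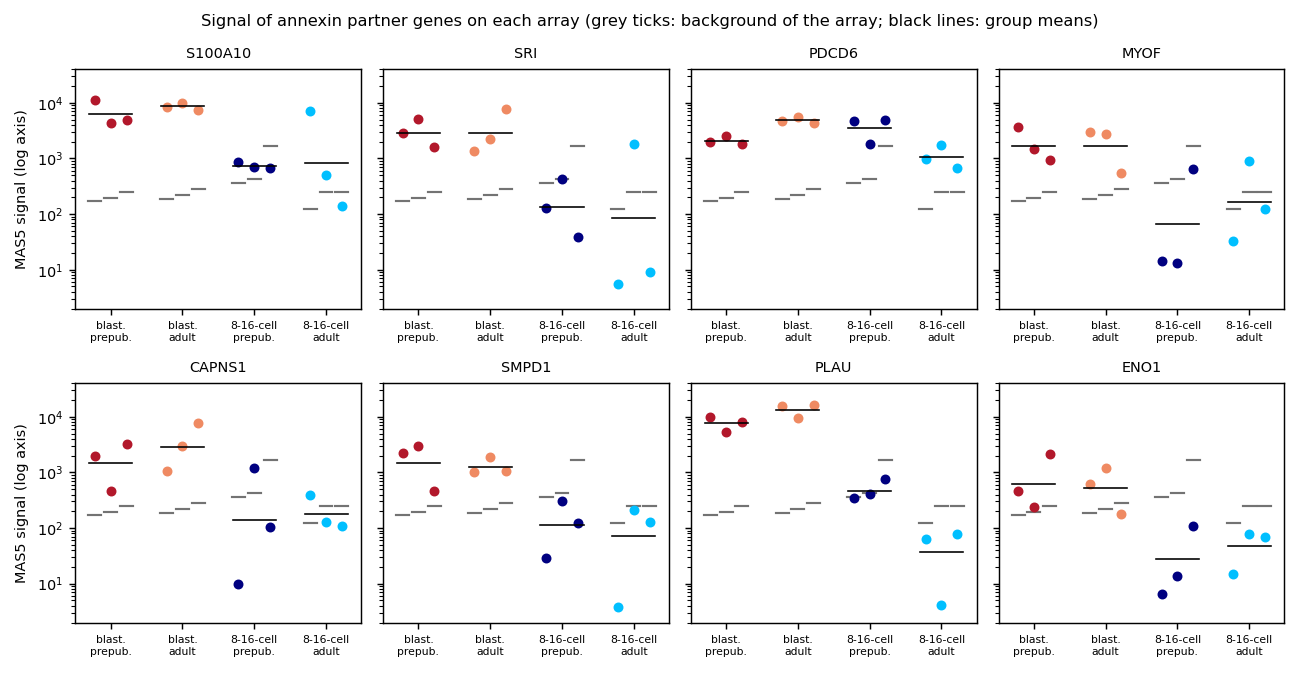
MAS5 signal (log axis) of 8 genes from the annexin-binding, membrane repair and plasminogen lists on each of the 12 arrays. Prepubertal blastocysts, adult blastocysts, prepubertal 8-16-cell embryos and adult 8-16-cell embryos run from left to right. Shown are the list genes called for the mean of both origins, and PDCD6, which was not called. The other uncalled list genes are not shown. A point is 1 array, a grey tick its background and a black line the group mean on the log2(signal + 16) scale. PLAU separates the stages on every array, adult 8-16-cell replicate 1 has S100A10 at 7185, and PDCD6 is above background throughout.

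The genes whose signals followed each annexin most closely over the 12 arrays were sought among 7574 probe sets that each named 1 gene. A gene with several probe sets counted by the one of highest r, and each annexin by its probe set of highest mean. The stages separate on these arrays, so any gene with a stage difference correlates with another, and no test was made. ANXA1 was followed most closely by PTGS2 (a prostaglandin synthase, r = 0.969), KRT18 (a keratin of trophectoderm, r = 0.966) and LGALS3 (galectin-3, r = 0.964). For ANXA2 the closest were CLDN6 (a tight junction claudin, r = 0.970), SLC38A2 (an amino acid transporter, r = 0.967) and TPM1 (a tropomyosin, r = 0.963), and for ANXA6 CGN (cingulin of tight junctions, r = 0.976), PTPRF (r = 0.937) and SCPEP1 (r = 0.935). ANXA4 was closest to ADM (adrenomedullin, r = 0.907), ABHD16A (r = 0.900) and PITPNA (r = 0.896), ANXA5 to APC (r = 0.841), COIL (r = 0.816) and MRPL37 (r = 0.812), and ANXA11 to PLET1 (r = 0.935), PSMC2 (r = 0.902) and COG4 (r = 0.876). Between the annexins themselves r was 0.947 for ANXA1 with ANXA2, 0.845 for ANXA1 with ANXA6 and 0.842 for ANXA2 with ANXA6, while ANXA11 had r of 0.167 to 0.344 with the other 5 and ANXA5 0.148 to 0.541.

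Markers of other cells were read beside these differences. Of 6 trophectoderm markers listed, KRT18, KRT8, CLDN6 and IFNT2 were measured. All 4 were called higher in blastocysts for the mean of both origins, as were 3.90% of all probe sets. The differences were 7.33, 5.76, 7.35 and 4.05 (limma adjusted p of 6.77e-10, 1.60e-05, 4.43e-09 and 0.00489). IFNT2 was called within neither origin (limma adjusted p = 0.27 prepubertal and 0.0597 adult). It read 17.0 on prepubertal blastocyst replicate 3, at background. The 3 called annexins were higher in blastocysts too, and how much of the annexin signal lay in trophectoderm was not tested. Of 3 genes listed for the inner cell mass, 2 were measured. POU5F1 was above background on all blastocyst arrays and SOX2 on none. Whether the POU5F1 signal came from the inner cell mass was not tested. Of 16 cumulus and granulosa cell genes 1 was higher in blastocysts (PTGS2) and 1 lower (STAR), against 3.90% and 2.51% of all probe sets. The defining FSHR and AMH were at background on all 12 arrays. STAR was above background on all 6 8-16-cell arrays and on 2 of 3 adult blastocyst arrays. HAS2 was above it on all 6 blastocyst arrays and on 2 of 3 adult 8-16-cell arrays. The HAS2 difference of 2.98 did not pass (limma adjusted p = 0.0643). The summed signal of the 16 genes was 7748 to 10321 in prepubertal blastocysts and 10956 to 19756 in adult blastocysts. In prepubertal and adult 8-16-cell embryos it was 2028 to 16601 and 3644 to 4975. Single genes made up much of these sums. PTGS2 alone read 5245 to 8304 in prepubertal and 6650 to 17529 in adult blastocysts, and STAR 11344 on prepubertal 8-16-cell replicate 3. Of 5 blood and 6 sperm genes measured, 0 were called in any comparison (limma).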

How the data were processed

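Per the labels, RNA pooled from embryos was amplified by a whole-transcript method, labelled with biotin and read on an Affymetrix bovine array. The authors deposited 1 intensity per probe set, made with MAS5 per the submitters' processing notes, whose version the sources used here do not give. The intensities are linear, and their trimmed mean (2% off each end) was 500.19 to 500.31 on every array. Of 24128 probe sets, 112 controls were left out. Probe set names came from the platform annotation, with 13292 naming 1 gene, and 13263 were looked up by gene identifier in the gene table. No 2 arrays shared over 0.00416% of values.

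log2(signal + 16) was fitted with limma 3.58.1 in R 4.3.3 (lmFit with 4 group means on 12 arrays, eBayes with trend, 8 residual and 195.66 prior degrees of freedom). Its two-sided moderated p underwent Benjamini-Hochberg adjustment over 24016 probe sets and called under 0.05. With 3 arrays per group, their number limits the precision. The code was tested on simulated data. Where a gene had several probe sets, lists used the one of highest mean, as did correlations for the annexins. The genes compared with the annexins entered with every probe set at or above the median level. Alternatives were other pseudocounts, quantile normalization, a filter, a floor, other variance settings, array weights, a replicate block, the 6 arrays of a comparison and leaving out each array. Replicate numbers were not used to pair the samples. Deviations correlated at -0.0253 to 0.0486 within a number (median 0.0132) and -0.0721 to 0.044 across numbers (median -0.00973). These correlations cover all probe sets, many of them at background, so they cannot settle whether pools were paired. The members and gene lists were chosen with earlier results of these data known. Annexins were all named. Of each partner list up to 4 genes of smallest adjusted p were named, of the markers the defining ones, and for likeness the 3 genes of highest r among named genes at or above the median level. PDCD6, S100A11, PLAUR and PLG fall outside this rule and were named, as known partners, after their values were seen, as were the markers STAR, PTGS2 and HAS2.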

Additional observations from a re-analysis of the deposited data

How the results depend on the processing

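The counts of called annexin probe sets stayed within 1.5 times the main count under every alternative run but 1. When every signal was raised to at least 1664, the highest background of any array, 5 annexin probe sets and 6396 in all could be tested, and the stage counts were 1 with prepubertal oocytes, 1 with adult oocytes and 1 for the mean of both. ANXA2 held (3.15, 2.16 and 2.66, limma adjusted p = 0.00083, 0.0082 and 0.0001), ANXA1 did not (1.39, 0.316 and 0.851, adjusted p = 0.125, 0.782 and 0.15), and ANXA6 had 0.411, 0.89 and 0.65 (adjusted p = 0.852, 0.423 and 0.432). The floor exceeds most annexin signals, so less of each difference remains by construction. Leaving out 1 array at a time gave 2 to 3 called annexin probe sets with prepubertal oocytes, 2 in every case with adult oocytes, 3 in every case for the mean, and 0 in every case for both origin comparisons and their difference. ANXA6 with prepubertal oocytes also lost its call with array weights (5.00, limma adjusted p = 0.0574). Of 1252 values for single annexins under an alternative, 1238 kept their side of the threshold and direction or changed sign below it, 11 lost a call, 3 gained one, and 38 uncalled differences changed sign. With the replicate block the counts were 3, 2 and 3 for the stage comparisons and 0 for the rest, and ANXA6 with prepubertal oocytes had 5.16 (limma adjusted p = 0.0304), so the block changed no call. For the partner lists (annexin binding, repair, phosphatidylserine, plasminogen), alternatives chosen after seeing the data gave counts of 2, 4, 0 and 2 without prepubertal 8-16-cell replicate 3, of 2, 3, 0 and 2 after quantile normalization, and of 1, 0, 0 and 1 with the floor. A background set by the second highest control left the counts of annexin probe sets above it on every array of a group as they were. The counts at background on every array were then 2, 3, 6 and 5 in prepubertal blastocysts, adult blastocysts, prepubertal 8-16-cell and adult 8-16-cell embryos, in place of 2, 3, 7 and 8. Lower bounds on a fold were also computed without each array in turn, chosen after seeing the data. Most 8-16-cell annexin signals lay at background, which limits what they show.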
